A study of Mus musculus with 5 samples.

Results

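The genes described here build, fill and police the endoplasmic reticulum (ER), the compartment in which a secreting cell makes its exported proteins. They were 50 named genes, chosen by symbol for their role, of 24347 symbols in the deposited tables, and all 50 passed the filter on low values that left 9682 genes for testing. By role they comprised 18 folding enzymes and chaperones, 7 stress sensors and transcription regulators, 4 genes of ER-associated degradation, 7 of the translocon, 5 of the signal peptidase, 6 of the oligosaccharyltransferase and 3 cargo receptors of the Tmed (p24) family. The libraries came from 2 populations sorted from early mammary lesions, called precancerous in the labels, of MMTV-Wnt-1 mice, whose transgene expresses Wnt-1 from the MMTV promoter in mammary epithelium, on a background mixed from FVB, SJL and C57BL/6. Both populations carried the transgene, and no mouse without it was part of the comparison. The labels call the first population keratin 6a+ precancerous stem cells (Krt6a+, 2 libraries, numbered 2 and 3) and the second whey acidic protein+ cells (WAP+, 3 libraries, numbered 1 to 3), each library from a pool of sorted cells. The cells of each pool were collected by flow cytometry for TVA, the receptor of an avian virus. The mice's age at sorting, the number of mice behind a pool and the way TVA marked each population are not stated in the labels.

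A nascent secreted protein enters the ER through the Sec61 channel, loses its signal peptide to the signal peptidase and receives sugar chains from the oligosaccharyltransferase. Chaperones led by the Hsp70-type protein BiP, the product of Hspa5, then fold it, disulfide isomerases join its cysteines, and what stays misfolded is sent back to the cytosol and degraded. When unfolded protein accumulates, 3 sensors in the ER membrane (IRE1, encoded by Ern1, PERK, encoded by Eif2ak3, and ATF6) raise the transcription of chaperone and degradation genes, a programme called the unfolded protein response. Secretory mammary cells are known for an ER that expands when milk is made.

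Levels were FPKM, which counts fragments relative to transcript length and to all mapped fragments, and differences were taken on log2(scaled FPKM + 1), Krt6a+ minus WAP+. The libraries held 8112 to 8900 genes at FPKM 1 or more, with 290204015 to 384916289 bases of fragment coverage, and read totals were not given. Whether the libraries came from separate mice is not stated, so the p-values speak only of variation among these 5 samples, and part of it may be technical. The named keratin fitted its label, with Krt6a at FPKM 1380 and 1130 in Krt6a+ against 168, 50 and 120 in WAP+ libraries, as did Wap, listed at 0 in both Krt6a+ libraries and at 50.1, 126 and 13.9 in WAP+ libraries. Krt6a+ library 3 also had a summed FPKM of 2530 over 5 luminal and milk markers, against 529 in library 2 and 6140 to 10800 in WAP+ libraries. That sum came from Krt18 (1280 in library 3 against 353 in library 2), Krt8 (719 against 66.2) and Csn3 (529 against 110). The milk genes Wap and Lalba were listed at 0 in both Krt6a+ libraries. Over 4 basal markers the Krt6a+ pools summed to 4100 and 3780 and the WAP+ pools 1, 2 and 3 to 1130, 196 and 1020. In bulk pools, fewer cells of a type and less RNA per cell cannot be told apart. An exact 0 in these tables can be a failed estimate, since Rpl10 and Eno1, used by every cell, were listed at 0 in all 5 libraries.

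Of the 50 genes, 2 fell in Krt6a+ libraries and 0 rose at an adjusted p under 0.05 (limma, Benjamini-Hochberg over 9682 genes). Among all genes tested 0.434% were called lower and 0.258% higher. At an unadjusted p under 0.05, 6 members were higher and 10 lower, where all genes gave 7.66% and 9.45%. After scaling, the libraries of the populations did not overlap for 11 members with Krt6a+ above and 12 with WAP+ above, where all genes gave 17.4% in each direction. By role, 14 of the 18 translocon, signal peptidase and oligosaccharyltransferase genes had negative differences, and 18 of the 25 folding and sensor genes and 4 of 4 degradation genes had positive ones.

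**Figure D1:**
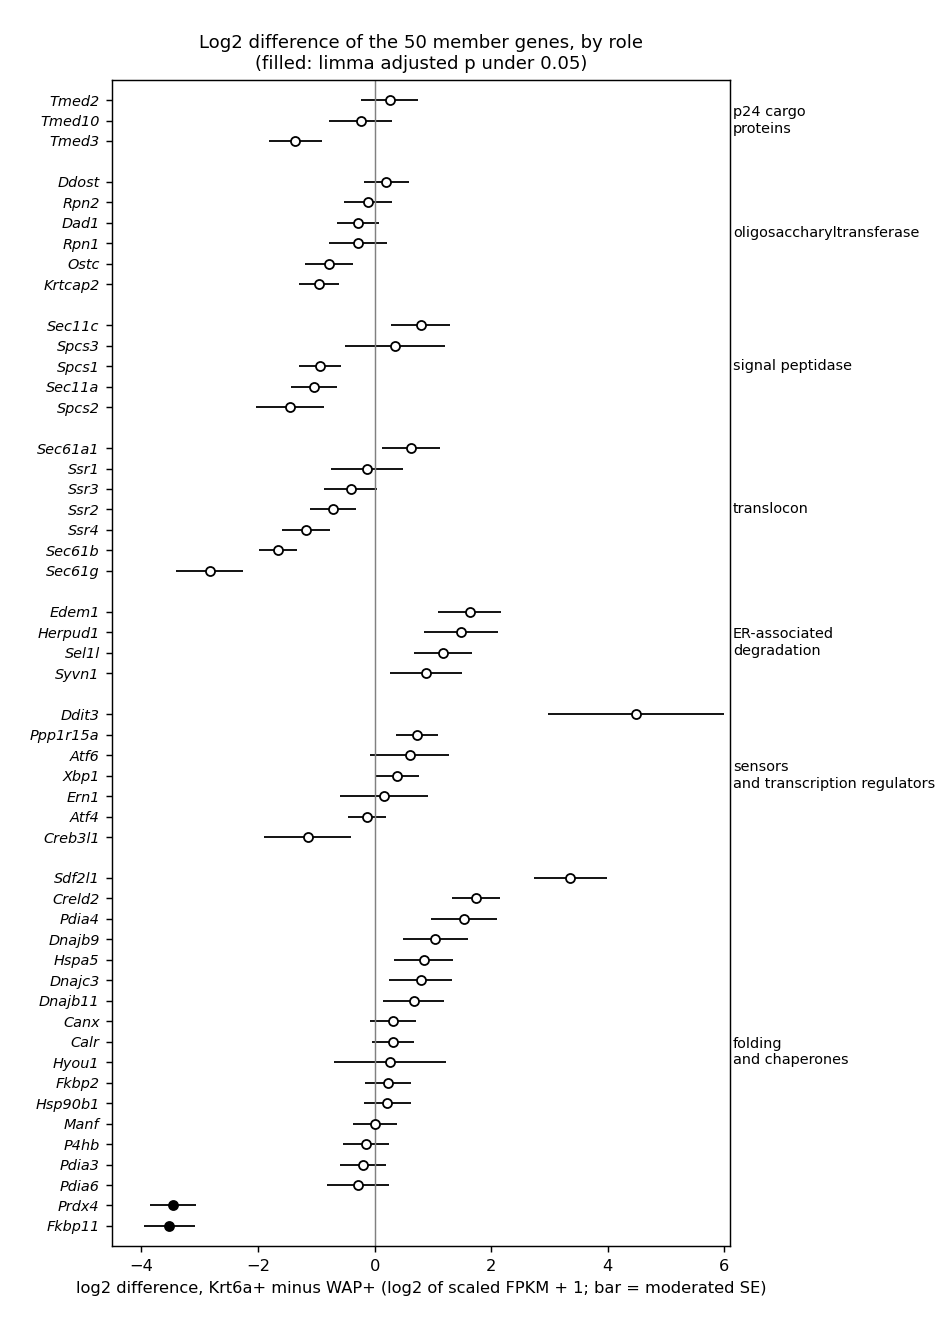
Log2 difference (Krt6a+ minus WAP+, x axis) of each of the 50 genes, grouped by role, with bars for the moderated standard error and filled points for an adjusted p under 0.05. The filled points are Prdx4 (-3.46) and Fkbp11 (-3.52), and the 4 degradation genes all lie to the right of 0.

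The promoters of these genes are shown first, because the unfolded protein response acts through short DNA elements and the chaperone genes are the usual textbook carriers of one. Promoter windows (RefSeq, GRCm38.p6, the assembly called mm10) ran from 250 bases before to 50 after each start, and 40 of the 50 genes matched 1 or more. Searched on both strands were the ER stress response element ERSE, CCAAT and CCACG with any 9 bases between them, the related ERSE-II, ATTGG and CCACG with any 1 base between them, and the unfolded protein response element UPRE, TGACGTGG. ERSE was in 8 of the 40 member genes (20%) and in 0.137% of the 27025 genes in the table. ERSE-II was in 3 members (7.5%) and 0.0444% of genes, and UPRE in 0 members and 0.714% of genes. A match describes letters in a window and is not a measured binding site. The ERSE matches are printed 5′ to 3′ on the strand that reads CCAAT first, with the fixed letters in capitals and the spacer in lower case:
Hspa5: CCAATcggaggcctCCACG
Hsp90b1: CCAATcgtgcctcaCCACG
Hsp90b1: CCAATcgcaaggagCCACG
Calr: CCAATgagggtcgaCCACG
Canx: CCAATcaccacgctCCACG
Creld2: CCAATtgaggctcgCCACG
Dnajc3: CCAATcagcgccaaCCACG
Pdia6: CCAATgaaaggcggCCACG
Syvn1: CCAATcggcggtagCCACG

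Hsp90b1 had 2 matches, and those of Calr and Creld2, and 1 of Hsp90b1, lay on the strand opposite to the gene. The ERSE-II matches, in the same form, were in the degradation gene Herpud1, in Dnajb11 and in Krtcap2, a subunit of the oligosaccharyltransferase:
Herpud1: ATTGGgCCACG
Dnajb11: ATTGGcCCACG
Krtcap2: ATTGGaCCACG

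Whole windows are printed for 6 genes, in lower case with the fixed letters of any ERSE or ERSE-II in capitals: 3 carriers (Hspa5, Creld2 and Herpud1), Sdf2l1, the folding gene with the largest positive difference, and both genes past the threshold, Prdx4 and Fkbp11. They lie at chr2:34771840-34772139 (+ strand), chr15:88819396-88819695 (+ strand), chr8:94386179-94386478 (+ strand), chr16:17132334-17132633 (- strand), chrX:155338411-155338710 (- strand) and chr15:98728149-98728448 (- strand), each on the strand of its gene.
Hspa5: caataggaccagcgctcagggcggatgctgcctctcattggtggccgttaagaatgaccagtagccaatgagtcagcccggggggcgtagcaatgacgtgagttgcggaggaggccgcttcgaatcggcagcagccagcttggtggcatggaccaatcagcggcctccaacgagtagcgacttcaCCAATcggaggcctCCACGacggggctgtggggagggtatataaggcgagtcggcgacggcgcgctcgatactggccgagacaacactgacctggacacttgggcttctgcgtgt
Creld2: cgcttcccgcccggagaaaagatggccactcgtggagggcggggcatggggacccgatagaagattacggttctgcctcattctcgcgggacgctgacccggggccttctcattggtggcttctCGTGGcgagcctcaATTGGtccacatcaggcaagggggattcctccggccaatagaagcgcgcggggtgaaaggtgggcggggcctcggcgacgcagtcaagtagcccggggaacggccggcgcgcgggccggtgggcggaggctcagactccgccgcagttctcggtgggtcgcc
Herpud1: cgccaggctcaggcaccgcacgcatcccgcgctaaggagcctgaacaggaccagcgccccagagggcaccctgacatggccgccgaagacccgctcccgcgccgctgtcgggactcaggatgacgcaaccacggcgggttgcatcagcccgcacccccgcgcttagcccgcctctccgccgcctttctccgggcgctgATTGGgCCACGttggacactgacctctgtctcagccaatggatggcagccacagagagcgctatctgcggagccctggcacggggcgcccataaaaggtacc
Sdf2l1: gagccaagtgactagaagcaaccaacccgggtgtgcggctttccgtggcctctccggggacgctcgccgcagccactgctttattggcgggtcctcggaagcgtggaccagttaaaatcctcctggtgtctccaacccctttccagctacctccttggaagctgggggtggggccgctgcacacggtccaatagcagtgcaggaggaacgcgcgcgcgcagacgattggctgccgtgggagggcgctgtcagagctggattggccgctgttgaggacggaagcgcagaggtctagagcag
Prdx4: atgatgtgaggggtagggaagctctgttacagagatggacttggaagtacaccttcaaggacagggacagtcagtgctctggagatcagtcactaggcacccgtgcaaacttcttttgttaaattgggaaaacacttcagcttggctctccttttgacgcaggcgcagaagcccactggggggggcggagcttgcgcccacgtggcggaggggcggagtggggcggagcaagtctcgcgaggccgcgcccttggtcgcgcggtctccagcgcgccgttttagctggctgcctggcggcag
Fkbp11: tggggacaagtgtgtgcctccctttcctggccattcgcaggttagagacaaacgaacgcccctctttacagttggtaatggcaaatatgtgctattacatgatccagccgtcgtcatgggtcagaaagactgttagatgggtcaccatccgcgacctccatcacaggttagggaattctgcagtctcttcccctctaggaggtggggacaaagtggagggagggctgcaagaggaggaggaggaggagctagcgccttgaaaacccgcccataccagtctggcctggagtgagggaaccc

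Read along the strand of the gene, the ERSE of Hspa5 began 65 bases before the start that set its window. In the same reading that of Creld2 began 126 bases before and the ERSE-II of Herpud1 52 bases before. The deposited Herpud1 transcript starts further downstream, at base 94386500. No exact ERSE or ERSE-II was in the windows of Sdf2l1, Prdx4 or Fkbp11, including a second Fkbp11 window not printed. Of the 11 carriers, 9 had positive and 2 negative differences, with a median of 0.67, a lowest value of -0.95 (Krtcap2) and a highest of 1.74 (Creld2). None passed the adjusted threshold. At an unadjusted p under 0.05, 1 was higher and 1 lower, where all genes gave 7.66% and 9.45%. The 29 members with a window and neither element had a median of -0.15, with 11 positive and 18 negative. These sets also differed in role. Of the carriers, 8 were folding genes and 2 degradation genes. Every translocon, signal peptidase and oligosaccharyltransferase gene with a window, except Krtcap2, lacked both elements. Role and element were therefore not told apart. All genes tested had a median of -0.01. Within the Krt6a+ population the carriers differed between libraries: 8 of the 11 had their highest scaled value of all 5 libraries in Krt6a+ library 3, as did 22% of all genes tested, and 0 had it in Krt6a+ library 2. This count was made after the values were seen.

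The differences of Prdx4 and Fkbp11, both higher in WAP+ libraries, were the only ones among the 50 genes to pass the threshold. Prdx4, an ER peroxiredoxin that consumes hydrogen peroxide and helps disulfide bonds to form, reached 168, 149 and 159 FPKM in the WAP+ pools but 10.6 and 20.2 FPKM in the Krt6a+ pools. The WAP+ values lay close together and far above both Krt6a+ values. The deposited bounds, assumed to be 95% bounds, cover error in assigning and counting fragments. They were 138 to 160 for the lowest WAP+ library and 15.1 to 25.2 for the highest Krt6a+ library. After scaling the means were 164 ± 17.3 (SD, n = 3) and 14.3 ± 4.98 (SD, n = 2), an 11-fold difference on the log2(FPKM + 1) scale (log2 -3.46 ± 0.40 SE, limma, adjusted p = 0.0202). Its transcript lies on chromosome X from 155323920 to 155338454.

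Fkbp11, a peptidyl-prolyl isomerase of the ER known from secretory tissues, reached 90.4, 110 and 77.1 FPKM in the WAP+ pools but 5.67 and 10.5 FPKM in the Krt6a+ pools. The groups were again well apart, and the means after scaling were 96.4 ± 22.3 (SD, n = 3) and 7.56 ± 2.52 (SD, n = 2), 11.4-fold (log2 -3.52 ± 0.44 SE, limma, adjusted p = 0.0275). The transcript lies on chromosome 15 from 98724368 to 98728198. Both differences kept their size when any one library was left out (log2 -3.79 to -3.12 for Prdx4 and -3.81 to -3.21 for Fkbp11), but both calls were lost without WAP+ library 1, 2 or 3 (limma, adjusted p = 0.130, 0.150 and 0.140 for Prdx4, and 0.133, 0.202 and 0.141 for Fkbp11), without the low-value filter (0.179 and 0.244) and without the mean-variance trend (0.0553 for both). With the replicate number as a block, Fkbp11 did not pass (0.0647) and Prdx4 did (0.0483). The summed luminal and milk markers moved the same way as both genes, and their part was not tested.

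Opposite to these were Sdf2l1 and Creld2, both known as targets of the unfolded protein response. Sdf2l1, a partner of the BiP chaperone complex, stood at 29.5 and 50.8 FPKM in the Krt6a+ pools, and at 1.24, 3.74 and 3.18 FPKM in the WAP+ pools. The groups did not overlap, and after scaling the means were 37.5 ± 10.5 (SD, n = 2) and 2.95 ± 1.63 (SD, n = 3), 10.3-fold on the log2(FPKM + 1) scale (log2 3.36 ± 0.63 SE), which just missed the threshold (limma, adjusted p = 0.0570). It passed with a pseudocount of 5 (0.0479), with FPKM 5 or more in at least 2 libraries (0.0417), with values above 0 in all libraries (0.0346) and with the length trend removed (0.0406). Sdf2l1 did not pass in the other 12 alternatives, among them no filter on low values (0.351), pseudocount 0.1 (0.101), the replicate block (0.138) and leaving out any one library (0.0909 to 0.202). Creld2, a secreted ER stress protein, had FPKM 82.0 and 161 against 43.4, 27.2 and 25.3, also without overlap (log2 1.74 ± 0.42 SE, limma, adjusted p = 0.0982).

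**Figure D2:**
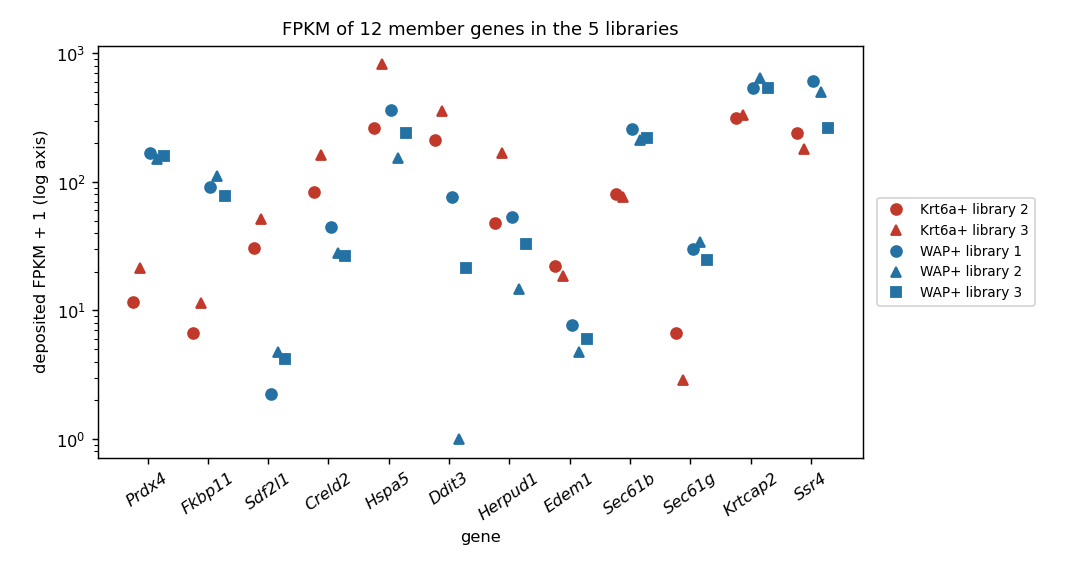
Deposited FPKM + 1 (log axis) of 12 genes in the 2 Krt6a+ libraries (red) and 3 WAP+ libraries (blue), 1 point per library. Prdx4 and Fkbp11 lie below in both Krt6a+ libraries, Sdf2l1 lies above in both, and Ddit3 is listed at 0 in WAP+ library 2.

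The remaining chaperones differed less, and 1 Krt6a+ library stood out. Hspa5 (BiP) stood at 261 and 818 FPKM in the Krt6a+ pools, and at 361, 153 and 240 FPKM in the WAP+ pools, so its high mean in Krt6a+ cells came from library 3 and the groups overlapped (log2 0.84 ± 0.51 SE, limma, adjusted p = 0.442). The log2 difference of Hspa5 was 0.13 without Krt6a+ library 3 and 1.57 without library 2, with the spread of the Krt6a+ population not measured in either refit. Across the 18 folding genes, 11 had their highest scaled value in Krt6a+ library 3, as did 22% of all genes tested, and 2 in Krt6a+ library 2. Library 3 also differed from library 2 in its summed luminal and milk markers (2530 against 529), through Krt18, Krt8 and Csn3 and not through Wap or Lalba. The fibroblast markers were mixed. Dcn had FPKM 210 in library 3 against 49.4 in library 2. Col1a1, Col1a2, Col3a1 and Pdgfra were at 0 in library 3 and at 0.0221 to 4.12 in library 2. The part of these markers in the chaperone levels was not tested. The disulfide isomerase Pdia4 had FPKM 15.7 and 35.8 against 9.64, 8.44 and 4.01, without overlap (log2 1.53 ± 0.57 SE, limma, adjusted p = 0.225), and the BiP cochaperone Dnajb9 11.6 and 21.6 against 10.8, 5.83 and 4.52 (log2 1.04, limma, adjusted p = 0.392). The other cochaperones, Dnajc3 (log2 0.79) and Dnajb11 (0.67), overlapped between populations.

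The lectin chaperones of glycoprotein folding lay near 0 (Calr 0.31, Canx 0.32), as did the Hsp90-type chaperone Hsp90b1 (0.22), the isomerases Pdia3 (-0.20), P4hb (-0.15) and Pdia6 (-0.29), Fkbp2 (0.23) and the secreted stress protein Manf (0.01). Of these only Canx had scaled values that did not overlap, by a small margin (FPKM 36.7 and 53.1 against 35.7, 31.3 and 30.0). Hyou1, a nucleotide exchange factor of BiP, was low throughout, at 0 and 6.49 FPKM in the Krt6a+ pools, and at 2.45, 1.94 and 0.0394 FPKM in the WAP+ pools. The 18 folding genes together had a median log2 difference of 0.28, from -3.52 to 3.36, with 13 positive, 5 negative and 16 not called. Heat shock genes outside the ER, cytosolic ones and the mitochondrial pair Hspd1 and Hspe1, were listed beside them. Hspa1a, an inducible cytosolic Hsp70, had FPKM 66.6 and 146 against 7.75, 10 and 10.1 (log2 3.17 ± 0.50 SE, limma, adjusted p = 0.0448). The call of Hspa1a was lost without Krt6a+ library 3 (0.0679), without WAP+ library 1, 2 or 3 (0.138, 0.202 and 0.167), with no filter on low values (0.317), at pseudocount 0.1 (0.0714), without the mean-variance trend (0.0776) and with the replicate block (0.0977). The 11 genes of that list had a median of 0.41, with 7 positive and 4 negative, 1 called higher and 10 not called. Hspe1 (log2 -1.67, limma, adjusted p = 0.103) and Hspd1 (log2 -1.42, limma, adjusted p = 0.210) had the lowest values, and the part of the list in the ER differences was not tested.

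Among the sensors and regulators, Ddit3 had the largest difference and Atf4 and Xbp1 hardly differed. Ddit3, encoding the stress transcription factor CHOP, stood at 211 and 355 FPKM in the Krt6a+ pools, and at 74.7, 0 and 20.3 FPKM in the WAP+ pools. The Krt6a+ values were both above the WAP+ values, which themselves ranged widely, and the difference did not pass (log2 4.48 ± 1.51 SE, limma, adjusted p = 0.187). Without WAP+ library 2, where Ddit3 was listed at 0, it was 2.67. Across WAP+ libraries Ddit3 and the degradation gene Herpud1 had the same order as the summed basal markers (1130, 196 and 1020). Most of that sum was Krt14 (936, 130 and 862), and Krt6a (168, 50 and 120) had the same order. Krt5 (22.4, 13.4 and 34.7) and Trp63 (0.115, 1.65 and 1.99) had other orders. The part of the basal markers was not tested. Ppp1r15a, a phosphatase subunit that ends the translational block, had FPKM 174 and 247 against 171, 96.5 and 91.3 (log2 0.73 ± 0.36 SE, limma, adjusted p = 0.352).

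Atf4, a transcription factor that acts upstream of Ddit3 and is controlled largely at translation, had FPKM 361 and 434 against 411, 381 and 407, with the groups mixed (log2 -0.13 ± 0.32 SE, limma, adjusted p = 0.886). The sign of Atf4 turned with quantile normalization (0.32) and with the length trend removed (0.18). Xbp1, whose mRNA is cut by IRE1 to make the active factor, had FPKM 162 and 123 against 100, 109 and 90.2 (log2 0.38 ± 0.38 SE, limma, adjusted p = 0.657). The sensors themselves were low, with Ern1 at 3.85 and 2.34 against 5.46, 0.688 and 2.77 and Atf6 at 2.95 and 10.5 against 3.89, 2.49 and 3.17. Creb3l1, an ATF6-like factor of secretory cells, had FPKM 0 and 1.49 against 2.70, 0.919 and 4.13 (log2 -1.15 ± 0.74 SE, limma, adjusted p = 0.468).

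The tables list both forms of the Xbp1 message. The model that matches the unspliced form (chromosome 11 from 5520641 to 5525993) held all of the Xbp1 FPKM in every library, and the model shorter by 26 bases, the length removed by IRE1, was listed at 0 in all 5, with upper bounds of at most 0.199. The models share nearly all of their bases, and how well the authors' tools divided reads between such models was not tested. The model that received the reads also changed between libraries elsewhere: the FPKM of Canx was given wholly to 1 model in Krt6a+ libraries 2 and 3 and WAP+ library 2, and wholly to another in WAP+ libraries 1 and 3. Of the 50 genes, 12 had several models, and their sums are used here.

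All 4 degradation genes had positive differences, and their median, 1.33, was the highest of the 7 role groups. Edem1, which delivers misfolded glycoproteins for disposal, stood at 21.0 and 17.4 FPKM in the Krt6a+ pools, and at 6.72, 3.76 and 4.95 FPKM in the WAP+ pools, so that both Krt6a+ values were above every WAP+ value (log2 1.63 ± 0.54 SE, limma, adjusted p = 0.178). Sel1l, the partner of the ubiquitin ligase, had FPKM 17.7 and 20.2 against 7.65, 5.99 and 8.03, again without overlap (log2 1.18 ± 0.50 SE, limma, adjusted p = 0.288). Syvn1, the ligase itself, had 7.23 and 16.8 against 8.75, 4.34 and 3.44 (log2 0.88, limma, adjusted p = 0.503), with overlap, and ranged from 0.42 to 1.34 when any one library was left out.

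Herpud1, a scaffold of the degradation complex and a strong stress target, had FPKM 47.0 and 166 against 52.1, 13.7 and 32.0 (log2 1.48 ± 0.64 SE, limma, adjusted p = 0.294). The deposited values of Herpud1 overlapped and the scaled ones did not. None of the 4 genes passed the adjusted threshold, and 2 were higher at an unadjusted p under 0.05, as were 7.66% of all genes tested. Without Krt6a+ library 3 the log2 difference of Herpud1 was 0.69, and without library 2 it was 2.28. The median of the 4 genes stayed positive when any one library was left out, from 0.94 to 1.45.

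**Figure D3:**
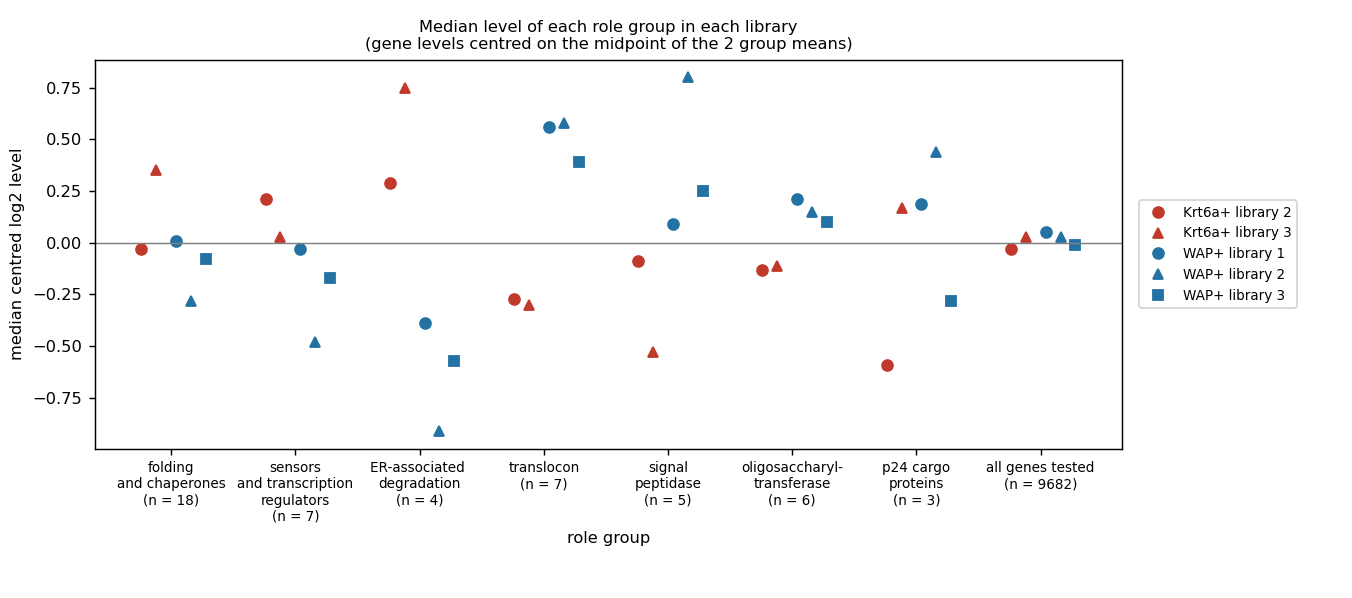
Median over each role group of log2 level in each library (y axis), after centring each gene on the midpoint of the 2 group means, with Krt6a+ libraries in red and WAP+ in blue. In the degradation group both Krt6a+ libraries (0.29 and 0.75) lie above all WAP+ libraries, and in the translocon group both (-0.27 and -0.30) lie below.

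Of the 18 entry and glycosylation genes 0 were called, and 7 were lower and 0 higher at an unadjusted p under 0.05. All genes tested gave 9.45% lower and 7.66% higher, and transcript length is taken up below. The lowest values were those of Sec61g and Sec61b. Sec61b and Sec61g encode the beta and gamma subunits of the channel. Sec61b stood at 79.3 and 75.6 FPKM in the Krt6a+ pools, and at 257, 211 and 217 FPKM in the WAP+ pools, with little spread in either population (means after scaling of 74.0 ± 9.79, SD, n = 2, against 235 ± 11.5, SD, n = 3). Its difference did not pass (log2 -1.66 ± 0.33 SE, limma, adjusted p = 0.0665), and did with FPKM 5 or more in at least 2 libraries (0.0473) but in no other alternative. With the length trend removed the difference of Sec61b was -0.56 (limma, adjusted p = 0.488). Sec61g had FPKM 5.69 and 1.87 against 29.0, 33.0 and 23.5 (log2 -2.83 ± 0.58 SE, limma, adjusted p = 0.0685). Sec61g passed in 4 alternatives: FPKM 5 or more in at least 2 libraries (0.0491), values above 0 in all libraries (0.0460), the highest model per gene (0.0413) and without Krt6a+ library 2 (0.0458). It did not pass in the other 12, among them no filter (0.370), the length trend removed (0.139), the replicate block (0.121) and leaving out Krt6a+ library 3 (0.104) or a WAP+ library (0.175 to 0.243). The large pore subunit Sec61a1 had a positive difference, with FPKM 58.7 and 33.7 against 30.5, 17.8 and 33.0 (log2 0.63 ± 0.50 SE, limma, adjusted p = 0.565). Without Krt6a+ library 2 the difference of Sec61a1 was 0.14, and without library 3 it was 1.12.

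Of the translocon-associated proteins, which sit beside the channel, Ssr4 had FPKM 241 and 180 against 613, 500 and 261, without overlap (log2 -1.17 ± 0.41 SE, limma, adjusted p = 0.202). Ssr2 (log2 -0.71), Ssr3 (-0.41) and Ssr1 (-0.13) were also negative, and in all 6 of the 7 translocon genes were. In the signal peptidase, the noncatalytic subunits Spcs1 and Spcs2 and the catalytic subunit Sec11a were higher in each WAP+ library than in either Krt6a+ library. Spcs1 had FPKM 160 and 137 against 287, 309 and 202 (log2 -0.94 ± 0.36 SE, limma, adjusted p = 0.234). Spcs2 had 14.1 and 6.08 against 18.7, 33.0 and 26.1 (log2 -1.45 ± 0.59 SE, limma, adjusted p = 0.261), and Sec11a 49.7 and 103 against 141, 135 and 133 (log2 -1.04 ± 0.40 SE, limma, adjusted p = 0.232). Without Krt6a+ library 2 the difference of Spcs2 was -2.09 and that of Sec11a -0.62, and without library 3 they were -0.81 and -1.45.

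The alternative catalytic subunit Sec11c differed in sign from Sec11a, at 180 and 81.6 FPKM in the Krt6a+ pools, and at 105, 46.8 and 53.5 FPKM in the WAP+ pools (log2 0.79 ± 0.50 SE, limma, adjusted p = 0.463). That difference was 0.13 without Krt6a+ library 2 and 1.46 without library 3. Spcs3 was low, at 0.264 to 4.82 over the libraries. In the oligosaccharyltransferase, Krtcap2 had FPKM 313 and 329 against 540, 643 and 539, without overlap (log2 -0.95 ± 0.34 SE, limma, adjusted p = 0.207), and Ostc 71.2 and 45.0 against 106, 96.8 and 71.9 (log2 -0.78 ± 0.41 SE, limma, adjusted p = 0.376). Dad1, a small subunit, had 611 and 505 against 863, 641 and 442, with overlap (log2 -0.29 ± 0.36 SE, limma, adjusted p = 0.729). Leaving out Krt6a+ library 3 moved Ostc to -0.35, and leaving out library 2 moved it to -1.20. With the length trend removed Krtcap2 had 0.21, Dad1 0.61 and Ostc -0.24. The larger subunits Rpn1 (-0.29), Rpn2 (-0.11) and Ddost (0.20) lay near 0.

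Among the Tmed cargo receptors, which sort proteins into vesicles leaving the ER, Tmed3 had FPKM 11.2 and 25.4 against 42.7, 41.9 and 39.6, with even WAP+ values above both Krt6a+ values (log2 -1.36 ± 0.46 SE, limma, adjusted p = 0.188). Tmed2 (FPKM 14.0 and 17.1 against 14.9, 12.9 and 8.42, log2 0.26) and Tmed10 (8.28 and 19.5 against 17.4, 16.7 and 9.37, log2 -0.24) hardly differed. Tmed3 ranged from -1.81 to -0.89 when any one library was left out. The sign of Tmed10 turned without Krt6a+ library 2 (0.24).

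Set side by side, the 25 folding and sensor genes had a median of 0.31 and the 18 entry and glycosylation genes a median of -0.56, 0.87 apart, where all genes tested had -0.01. Library by library, the folding and sensor median minus the entry median, on centred levels, was 0.21 and 0.66 for the Krt6a+ pools against -0.24, -0.94 and -0.35 for the WAP+ pools. Both Krt6a+ values were thus above all 3 WAP+ values. No test was made of this difference, since the genes were chosen with earlier results known. Leaving out any one library gave 0.80 to 1.00 for the gap between the medians, and removing the length trend gave 0.54. With quantile normalization the folding and sensor median was 0.51, with 21 of 25 positive.

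Transcript length moved with this contrast. The 18 entry and glycosylation genes had a median length of 1148 bases (516 to 9306) and the 25 folding and sensor genes 2247 bases (629 to 7463). Over all genes tested, those shorter than 1000 bases had a median log2 difference of -0.86 (927 genes), those from 1000 to below 2000 bases -0.28 (2467 genes), those from 2000 to below 3000 bases 0.02 (2312 genes) and the longer ones 0.21 (3976 genes). The 6 entry and glycosylation genes under 1000 bases had a median of -1.06, against -0.86 for all short genes. The 4 from 1000 to below 2000 bases had -0.86, with 0 positive, against -0.28 for all genes of that class. The 4 from 2000 to below 3000 bases had -0.26, with 1 positive, against 0.02. The 4 of 3000 bases or more had 0.11, against 0.21. Spearman's rho between length and log2 difference, a description across genes that share libraries, was 0.52 over these 18 genes, 0.00 over the 25 folding and sensor genes and 0.26 over all genes tested.

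With the length trend of each library removed, the entry and glycosylation median went from -0.56 to -0.25, with 6 positive and 12 negative, and the folding and sensor median was 0.29. Sec61b then had -0.56, Ssr4 -0.25, Spcs1 -0.36 and Sec11a -0.54, while the sign of Krtcap2 (0.21) and Dad1 (0.61) turned. Sec61g (-2.0) and Spcs2 (-1.53) kept differences of over 1 on the log2 scale. Prdx4 and Fkbp11, of 975 and 736 bases, still passed, at -2.85 and -2.66 (limma, adjusted p = 0.0338 and 0.0406). Sdf2l1 and Ddit3, at 1108 and 871 bases, were short genes with positive differences, which became 3.87 and 5.19. Fkbp2 and Sec11c, at 629 and 770 bases, went from 0.23 to 1.22 and from 0.79 to 1.6.

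**Figure D4:**
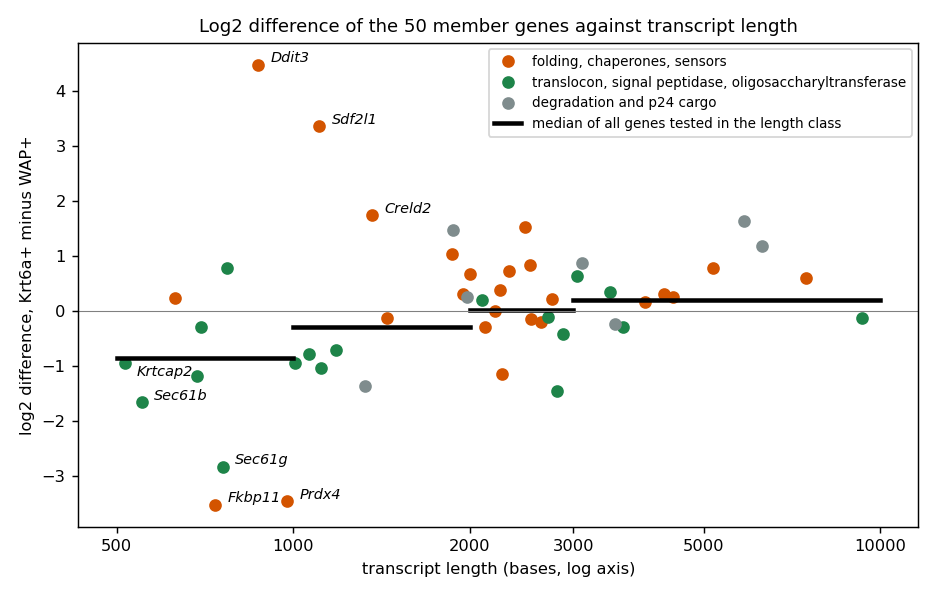
Log2 difference (Krt6a+ minus WAP+) against transcript length (log axis) for the 50 genes, coloured by role, with black bars for the median of all genes tested in 4 length classes. The entry and glycosylation genes under 1000 bases scatter around the lowest bar (-0.86), from Sec61g (-2.83) to Sec11c (0.79). Fkbp11 and Prdx4 lie well below that bar, and Ddit3 and Sdf2l1 lie well above the bars of their length classes.

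Another 91 genes of the same pathways were in the tables, listed by function but with earlier results of these data known, and 85 of them were tested. None was called in either direction over all genes (limma, 0 higher and 0 lower), and their median was -0.08. At an unadjusted p under 0.05, 4 were higher and 8 lower, where all genes gave 7.66% and 9.45%. The 10 tested genes of other degradation steps had a median of 0.63, with 8 positive and 2 negative. The 9 other glycosylation genes had a median of -0.40, with 2 positive and 7 negative, and the 13 other translocation genes -0.08. Unlike the folding and sensor members, the 17 other folding genes tested had a negative median, -0.27, with 6 positive and 11 negative. The 14 other sensors and stress targets had -0.05, with 6 positive and 8 negative, and the 22 other export genes 0.03.

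Those with the highest statistics were Atf6b, a relative of ATF6 (FPKM 11.8 and 14.0 against 2.56, 2.31 and 1.42, log2 2.08, limma, adjusted p = 0.138), Srp9, a subunit of the signal recognition particle (22.5 and 10.7 against 3.01, 1.46 and 3.68, log2 2.11, limma, adjusted p = 0.171), and Srpr, a subunit of its receptor (log2 1.46, limma, adjusted p = 0.173). The lowest were Srp19, another subunit of the particle (log2 -1.11, limma, adjusted p = 0.183), Ppib, a prolyl isomerase of the ER (FPKM 165 and 203 against 324, 402 and 302, log2 -1.01, limma, adjusted p = 0.192), and Tmem258, a small subunit of the oligosaccharyltransferase (269 and 142 against 469, 636 and 322, log2 -1.35, limma, adjusted p = 0.194). With the length trend removed Srp19, Ppib and Tmem258, of 876, 960 and 418 bases, had -0.40, -0.39 and -0.0. Atf6b, Srp9 and Srpr then had 2.05, 2.45 and 1.37.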

How the data were processed

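RNA-seq was made from 2 Krt6a+ and 3 WAP+ pools of sorted cells, with full-length cDNA amplification and Nextera libraries that do not mark strand, per the labels' protocols. TopHat, Cufflinks and the build mm10 are named in the submitters' processing notes, and their versions are not given in the sources used. The authors deposited FPKM per RefSeq transcript with lower and upper confidence bounds and a coverage signal per base, per the file headers. The level of the bounds was assumed to be 95%. Coverage was used only to describe depth. Fragment counts implied by the bounds of low single-transcript values lay within 0.02 of a whole number for 31.7% to 34.2%, so reads were not recovered and depth per gene is unknown.

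FPKM was summed by symbol and divided by a median-ratio factor (0.873 to 1.14, from 5334 genes reaching FPKM 1 in every library). A gene was tested if it reached FPKM 1 in 2 or more libraries. Values were log2(scaled FPKM + 1), which understates the change of low genes, and were fitted with limma 3.58.1 in R 4.3.3 (trended eBayes, two-sided, 3 residual and 4.87 prior degrees of freedom, threshold 0.05). The fit was tested on simulated data. With 2 and 3 libraries only 10 splits exist, so an exact permutation p could not be under 0.1, and none was computed.

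Members and gene lists were chosen with earlier results of these data known. Values in every library are given for Hspa5, Xbp1, Atf4, Ddit3 and, in each role group, the 3 genes with the largest moderated statistic (all in groups of 3 or 4). Of the other pathway genes, the 3 highest and 3 lowest are named by that statistic, and Eif2ak3 was added after its values were seen. Creld2, Pdia4 and the remaining members were described after their values were seen. Alternatives were 3 other filters, 2 other pseudocounts, 2 other scalings, a length correction, the highest model per symbol, no trend, a replicate block and leaving out each library. Protein C-termini were not analysed here.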

Additional observations from a re-analysis of the deposited data

How the results depend on the processing

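Over all genes, calls higher and lower in Krt6a+ were 25 and 42 (37.3% higher). They were 6 and 20 at pseudocount 0.1, 41 and 31 at pseudocount 5, 7 and 1 with no filter, 71 and 92 with FPKM 5 or more in at least 2 libraries, 69 and 64 with values above 0 in all libraries, 23 and 27 with no scaling, 39 and 39 with quantile normalization (50% higher), 63 and 31 with the length trend removed (67.0% higher), and 7 and 9 with no mean-variance trend. Leaving out 1 library gave 2 to 44 higher and 3 to 103 lower. Members called higher were 0, and 1 (Sdf2l1) with a pseudocount of 5, with FPKM 5 or more in at least 2 libraries, with values above 0 in all libraries and with the length trend removed. Members called lower were 2, and 4 with FPKM 5 or more in at least 2 libraries, 0 without the filter, 0 without the mean-variance trend and 0 to 3 when 1 library was left out. Other pathway genes called lower were 0, and 0 to 2 when 1 library was left out. The folding and sensor median of 0.31 was 0.51 with quantile normalization, and the entry and glycosylation median of -0.56 was -0.25 with the length trend removed. Signs turned for Atf4 (0.32 with quantile normalization, 0.18 with the length trend removed), Dad1 (0.26 and 0.61), Krtcap2 (0.21 with the length trend removed) and Tmed10 (-0.70 to 0.24 when 1 library was left out), and the cause was not tested. The other 27 of 31 genes named by rule kept their sign in the alternatives, 16 in all, that gave a value (493 values over the 31 genes). Among them Tmem258 was at -0.0 with the length trend removed.

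The labels share the replicate numbers 2 and 3 between populations and do not say whether same-numbered libraries came from a common animal. Deviations of same-numbered libraries from their group means correlated at 0.05 (number 2) and 0 (number 3) across genes. The deviations of the 2 Krt6a+ libraries mirror each other, so these values cannot show whether animals were shared. With the replicate number as a block, calls were 15 higher and 19 lower over all genes, and 1 member, Prdx4, was lower.

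A library left alone in its population was assumed to vary like the others. Hyou1, Spcs3 and Creb3l1 had FPKM near 0 in some libraries, and depth per gene is unknown.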
